A study of Sus scrofa with 8 samples.

Results

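PPARG, CEBPA, CEBPB, CEBPD, RXRA, NR1H3, STAT5A, STAT5B and NCOA1 encode transcriptional regulators of the fat cell, and their signal was compared between backfat of KNP and YS pigs. They were taken as every probe set annotated with exactly 1 gene symbol among these 9 genes, which gave 21 of 23999 probe sets and 9 of 6765 genes with a symbol on the Affymetrix GeneChip Porcine Genome Array. Given the 9 genes, choice of the probe sets used no measured value, but the genes were chosen with earlier results of these data known. The KNP group was 4 samples of backfat, the subcutaneous fat of the back, from pigs aged 7 months, and the YS group was 4 samples from pigs aged 6 months; YS is written as Yorkshire in 1 label, and the labels do not expand KNP. Both breeds were kept under the same conditions. All KNP samples were 1 month older, so breed and age cannot be told apart, and the labels name neither the sex nor the animal behind each sample. SDs and p-values here therefore cover the spread among the deposited samples, which may be technical in part.

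PPARG is the nuclear receptor that directs preadipocytes to become fat cells and keeps their fat storage genes active, and it binds DNA as a pair with the retinoid X receptor RXRA. In cultured mouse preadipocytes CEBPB and CEBPD are induced early and switch on PPARG and CEBPA, which then maintain each other's expression. NR1H3 encodes the oxysterol receptor LXRα, STAT5A and STAT5B carry the growth hormone and prolactin signal to the nucleus, and NCOA1 is a coactivator recruited by nuclear receptors bound to their ligands.

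Signal is the deposited intensity on a linear scale, log2 values are log2(signal + 16), and breeds were compared within each probe set; brightness also depends on the probe, so signals of different probe sets, and marker sums, do not rank genes by RNA level. The no-target level of an array, the 95th percentile of 23 control probe sets without a target in pig RNA, ranged from 40.6 to 161. Of the adipocyte marker list 5 of 7 genes were measured, and their summed signal ranged from 52436 to 77486 in KNP and from 47341 to 62886 in YS, most of it from FABP4. The median log2 deviation of these 5 genes from their own means was 0.34, -0.70, 0.20 and 0.32 on the KNP arrays and 0.39, 0.092, -0.041 and -0.62 on the YS arrays. Some arrays stood apart. The 3'/5' difference, the log2 signal of the 3' minus the 5' probe sets of actin, GAPDH and elongation factor, was 8.54, 5.88, 2.20 and 2.12 in KNP and 2.58, 3.17, 3.10 and 4.40 in YS, largest on KNP replicates 1 and 2 and YS replicate 4. The 8 measured skeletal muscle markers summed to 56279 on KNP replicate 2, to between 264 and 889.7 on the other KNP arrays and to between 342 and 698 on the YS arrays.

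None of the regulators differed between the breeds beyond the spread of the arrays. Of the 21 probe sets 20 passed the filter on low values, and 0 of these 20 had an adjusted p at or below 0.05 in limma, where percent called among all 17999 probe sets tested was also 0%. At an unadjusted p under 0.05 in limma there were 0 of 20, against 2.84% of all probe sets (1.49% higher and 1.35% lower in KNP). A difference of 2-fold or more was seen for 0 of 20, against 3.67% of all, and the KNP and YS values overlapped for all 20, where 1.96% of all probe sets had no overlap. A total of 11 of 20 probe sets (55%) had a higher mean in KNP and 9 a lower one, against 49.9% higher among all. The median log2 difference, KNP minus YS, was 0.052 for the 20 probe sets and -0.0010 for all. The median size of the difference was 0.29 and its median SE 0.32, against 0.24 and 0.37 over all probe sets. Every adjusted p of the 20 in limma was 0.9998, and unadjusted p ran from 0.192 to 0.95. These p-values do not show that the breeds are alike: the 95% confidence intervals of the differences, given with each gene, reached beyond 2-fold for several probe sets.

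**Figure D1:**
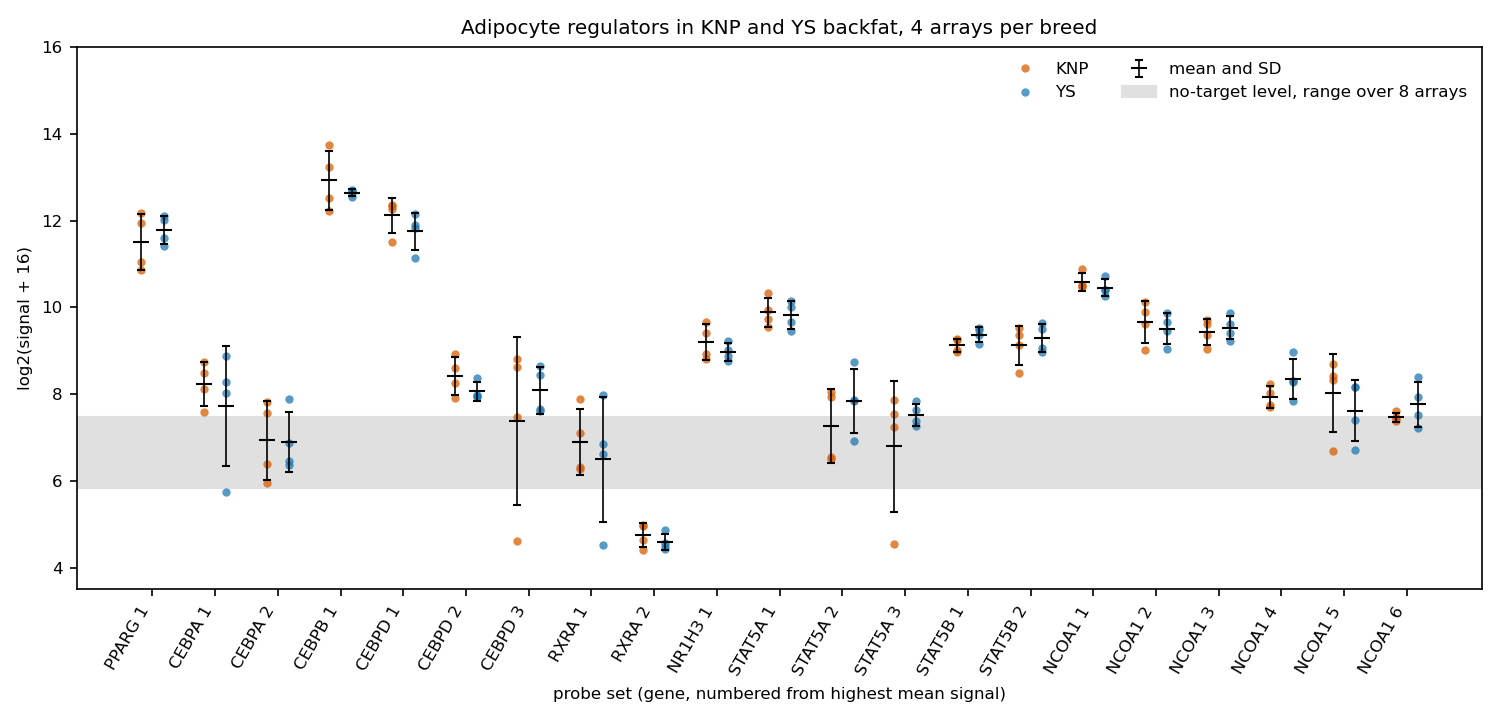
Signal of the 21 probe sets as log2(signal + 16), with 4 KNP arrays (orange, left of each pair) and 4 YS arrays (blue, right) as points, the mean and SD in black, and the range of the no-target level over the 8 arrays in grey. Probe sets are numbered within a gene from the highest mean signal; the points of the breeds overlap in every pair, and RXRA 2 lies below the grey band on all arrays.

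PPARG was measured by 1 probe set, Ssc.14475.3.S1_a_at, with a signal of 2087, 1854, 3923 and 4627 in KNP, against 4363, 3067, 4125 and 2712 in YS. The 2 highest KNP arrays were level with the 2 highest YS arrays, and the 2 lowest values of all were KNP replicates 2 and 1. On the log2 scale it was at 11.51 ± 0.65 for KNP and 11.78 ± 0.33 for YS (SD, n = 4), a difference of -0.27 ± 0.36 (SE) with a 95% interval of -1.08 to 0.54. The KNP mean was 0.83-fold, with an interval of 0.472 to 1.45, relative to YS. PPARG was lowest on the 3 arrays of highest 3'/5' difference, KNP replicates 1 and 2 and YS replicate 4, an order seen for 839 of 17999 probe sets tested (4.66%). Adjusted for the 3'/5' difference, the log2 difference of PPARG was -0.0029 ± 0.27 (SE), and in the 5 other arrays, 2 KNP and 3 YS, it was 0.16 ± 0.28 (SE), with the opposite sign. KNP replicate 2, the array with muscle transcripts, had the lowest PPARG signal, and without it the difference was -0.058. Without KNP replicate 1 it was -0.11, and without KNP replicate 4, the array with the highest PPARG signal, it was -0.50. KNP replicate 2 and YS replicate 4 also had the lowest median deviations of the adipocyte markers, and KNP replicate 1 did not. On KNP replicate 1 the single markers disagreed. ADIPOQ, at 156, was the lowest of all arrays there, and LIPE, at 2855, was above YS replicate 4 only. FABP4, at 56120, and LEP, at 5126, were the highest of all arrays, and GPAM, at 223, was below YS replicate 4 only. The part of the marker differences in the PPARG values was not tested. In such bulk tissue, fewer fat cells and less PPARG RNA per fat cell cannot be told apart.

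The early C/EBP factors CEBPB and CEBPD were read above the no-target level in both breeds, on all 8 arrays except for CEBPD 3 on 1 KNP array, and no difference between breeds passed the test. CEBPB, a leucine zipper factor also induced by inflammation and cyclic AMP, was read by Ssc.9738.1.A1_at at 4766, 9684, 13568 and 5865 in KNP, against 5935, 6652, 6388 and 6579 in YS. The YS arrays lay within a narrow band, while KNP replicates 3 and 2 lay above all of them and KNP replicates 1 and 4 below all of them. On the log2 scale it was at 12.93 ± 0.68 for KNP and 12.64 ± 0.074 for YS (SD, n = 4), a difference of 0.29 ± 0.35 (SE) with a 95% interval of -0.49 to 1.07. The difference was 0.019 without KNP replicate 3, its highest array, and 0.52 without KNP replicate 1, its lowest.

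CEBPD, which responds to glucocorticoids and cytokines, had 3 probe sets. The brightest, Ssc.10025.3.S1_at (CEBPD 1), was at 2907, 4910.4, 5121 and 5265 in KNP, against 3787, 3596, 4546 and 2245 in YS. KNP replicates 2, 3 and 4 were above every YS array and KNP replicate 1 was below 3 of the 4. The log2 difference was 0.37 ± 0.31 (SE) with a 95% interval of -0.34 to 1.08, and it was 0.57 without KNP replicate 1 and 0.16 without YS replicate 4, the array with the lowest value. The second probe set, Ssc.10025.2.S1_at (CEBPD 2), was at 371, 225, 471 and 287 in KNP, against 237, 232, 316 and 227 in YS, a difference of 0.36 ± 0.28 (SE) with an interval of -0.28 to 1.0; it was 0.19 without KNP replicate 3 and 0.53 without KNP replicate 2. The third, Ssc.10025.1.S1_at (CEBPD 3), was at 8.48, 160.5, 432 and 376 in KNP, against 331, 179, 388 and 184 in YS. Its difference of -0.71 ± 0.84 (SE) had the opposite sign and was 0.21 without KNP replicate 1, where the signal was below the no-target level, and -1.19 without KNP replicate 3. In the 5 arrays of small 3'/5' difference the 3 probe sets had differences of 0.39, 0.48 and 0.48, and with the 3'/5' covariate of 0.55, 0.40 and 0.090; none passed the test in either.

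CEBPA, the C/EBP factor of mature fat cells that sustains insulin sensitivity, had 2 probe sets, neither of which was above the no-target level on all 8 arrays. Its brighter probe set, Ssc.15991.1.S1_at (CEBPA 1), was at 176, 408, 345 and 259.8 in KNP, against 242, 296, 451 and 37.2 in YS. Only YS replicate 4 fell below the no-target level, and it also set the YS spread: log2 signal was 8.23 ± 0.50 for KNP and 7.72 ± 1.37 for YS (SD, n = 4). The difference of 0.50 ± 0.63 (SE), with a 95% interval of -0.91 to 1.92, was the largest towards KNP among the 20 tested, and it was -0.16 without YS replicate 4 and 0.88 without YS replicate 3. The other probe set, Ssc.15991.1.A1_at (CEBPA 2), was at 46.2, 174, 67.1 and 209 in KNP, against 65.8, 220.5, 72.2 and 102 in YS, above the no-target level on 2 arrays of each breed. Its difference was 0.033 ± 0.50 (SE) with an interval of -1.11 to 1.17, and its sign turned without KNP replicate 2 (-0.18), KNP replicate 4 (-0.26), YS replicate 1 (-0.15) or YS replicate 3 (-0.11).

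Of the nuclear receptor partners, NR1H3 was above the no-target level on all 8 arrays and RXRA was not. NR1H3, the oxysterol sensor that turns on cholesterol export and lipogenic genes, was read by Ssc.16354.1.S1_at at 667, 428, 799 and 465 in KNP, against 585, 452, 499 and 419 in YS. KNP replicates 3 and 1 were above all YS arrays, and the other 2 KNP arrays lay among the lower YS values. Log2 signal was 9.20 ± 0.41 for KNP and 8.97 ± 0.20 for YS (SD, n = 4), with a difference of 0.23 ± 0.28 (SE) and a 95% interval of -0.39 to 0.86. The difference was 0.073 without KNP replicate 3 and 0.36 without KNP replicate 2. RXRA, the partner with which PPARG and NR1H3 bind DNA, was read by Ssc.15990.1.A1_at (RXRA 1) at 222, 61.3, 63.2 and 120.2 in KNP, against 99.4, 82.3, 6.98 and 237 in YS. It was clear of the no-target level on 2 KNP and 3 YS arrays, and its difference of 0.40 ± 0.69 (SE), with an interval of -1.17 to 1.96, was -0.26 without YS replicate 3 and 0.89 without YS replicate 4. The other RXRA probe set, Ssc.15990.1.S1_at (RXRA 2), was the 1 member that did not pass the filter: its signal ran from 5.23 to 15.7 in KNP and from 5.53 to 12.9 in YS, below the no-target level on every array.

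STAT5A and STAT5B, the growth hormone and prolactin effectors, were present in both breeds with overlapping signal on their brightest probe sets. For STAT5B, Ssc.16047.1.S1_at (STAT5B 1) was at 499, 589.7, 487 and 599.5 in KNP, against 692, 549, 637 and 718 in YS. All 4 KNP arrays lay below the 3 highest YS arrays and only YS replicate 2 lay among them, and the SD within breeds, 0.16 on the log2 scale, was smaller than that of all but 1.56% of the probe sets tested. Its difference was -0.25 ± 0.22 (SE), with a 95% interval of -0.75 to 0.26. The second probe set, Ssc.16047.2.S1_at (STAT5B 2), was at 343, 546, 641 and 716 in KNP, against 482, 516, 780.1 and 712 in YS, a difference of -0.17 ± 0.31 (SE) with an interval of -0.86 to 0.52. That difference was -0.30 without KNP replicate 4, 0.047 without KNP replicate 1, and 0.22 in the 5 arrays of small 3'/5' difference.

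The 3 STAT5A probe sets differed in sign. The brightest, Ssc.16351.1.S2_at (STAT5A 1), was at 827, 1279, 960.1 and 735 in KNP, against 683, 793, 1122 and 1005 in YS. KNP replicate 2 was the highest of the 8 and YS replicate 1 the lowest, and the log2 difference was 0.071 ± 0.28 (SE) with a 95% interval of -0.56 to 0.70; it was -0.080 without KNP replicate 2 and -0.051 without YS replicate 1. Ssc.9632.1.A1_at (STAT5A 2) was at 227, 250.0, 74.5 and 78 in KNP, against 214, 217, 106 and 409.6 in YS. On KNP replicates 3 and 4 it was below their no-target levels of 76.1 and 93.3. Its 3 highest values were on the 3 arrays of highest 3'/5' difference, as for 1582 of 17999 probe sets tested (8.79%). The difference of -0.59 ± 0.50 (SE), with an interval of -1.71 to 0.54, was -0.96 ± 0.38 (SE) with the 3'/5' covariate and -1.02 ± 0.36 (SE) in the 5 other arrays. In limma the unadjusted p was then 0.0371 and 0.0317 and the adjusted p 0.999 and 0.577, so it passed in neither. The KNP arrays among those 5 were replicates 3 and 4, both below their no-target level. With 1 array left out the difference ran from -0.89 (without YS replicate 3) to -0.29 (without YS replicate 4). The third, Ssc.16351.1.S1_at (STAT5A 3), was at 134, 7.42, 215 and 169 in KNP, against 212, 138, 149 and 181 in YS. Its difference of -0.73 ± 0.66 (SE) came with a signal under the no-target level on KNP replicate 2, and was 0.018 without that array and -1.08 without KNP replicate 3.

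NCOA1, a histone acetyltransferase coactivator used by PPARG and other receptors, was covered by 6 probe sets, of which 3 had a higher and 3 a lower mean in KNP. The brightest, Ssc.1414.1.A1_a_at (NCOA1 1), was at 1435, 1391, 1874 and 1429 in KNP, against 1212, 1329, 1339 and 1678 in YS. Apart from KNP replicate 3 and YS replicate 4, the KNP arrays lay just above the YS arrays. On the log2 scale it was at 10.59 ± 0.20 for KNP and 10.45 ± 0.20 for YS (SD, n = 4), a difference of 0.14 ± 0.23 (SE) with a 95% interval of -0.39 to 0.67, so a 2-fold difference in either direction lay outside the interval for this probe set. Without KNP replicate 3, its highest array, the difference was 0.039, and without YS replicate 4 it was 0.23. NCOA1 2 and NCOA1 3 had differences of 0.15 ± 0.32 (SE) and -0.098 ± 0.26 (SE). The sign turned for NCOA1 2 without YS replicate 4 (-0.0043) and for NCOA1 3 without KNP replicate 1 (0.029) or YS replicate 2 (0.011).

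The smallest p of the 20, 0.192 unadjusted in limma, belonged to Ssc.31120.2.S1_at (NCOA1 4), at 192, 198, 283 and 246 in KNP, against 212, 297, 294 and 482 in YS. Its lowest values were KNP replicates 1 and 2 and its highest YS replicate 4, with a difference of -0.42 ± 0.30 (SE) and an interval of -1.08 to 0.25. It was -0.37 ± 0.31 (SE) with the 3'/5' covariate and -0.0047 ± 0.27 (SE) in the 5 arrays of small 3'/5' difference, and with 1 array left out it ran from -0.58 (without YS replicate 1) to -0.21 (without YS replicate 4). NCOA1 5, Ssc.24299.1.S1_at, was at 324, 87.2, 394 and 303 in KNP, against 89.0, 153, 271 and 272 in YS. The lowest of the 8 were KNP replicate 2, where the signal was below the no-target level, and YS replicate 1. The difference of 0.41 ± 0.51 (SE) was 0.47 ± 0.56 (SE) with the 3'/5' covariate and 1.07 ± 0.46 (SE) in the 5 arrays (limma, adjusted p 0.612). It was 0.11 without YS replicate 1 and 0.86 without KNP replicate 2. NCOA1 6 had a difference of -0.29 ± 0.29 (SE), with signals from 149 to 179 in KNP and from 132 to 319.5 in YS. With 1 array left out, the NCOA1 6 difference ran from -0.48 without YS replicate 2 to -0.083 without YS replicate 4.

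**Figure D2:**
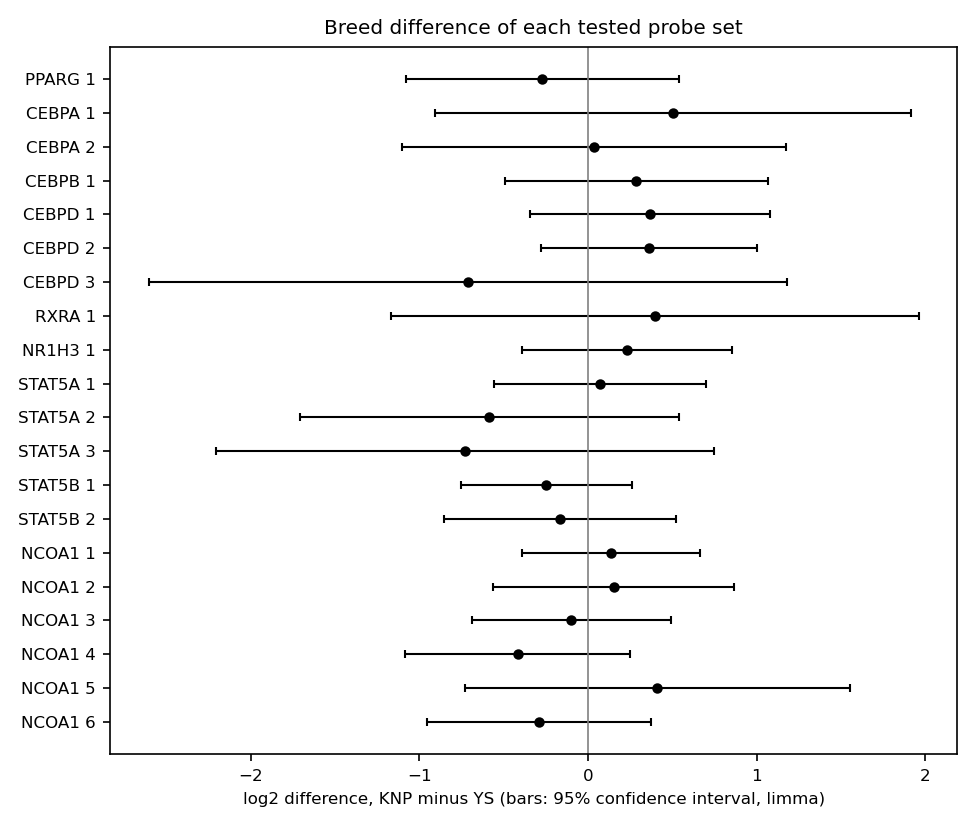
Log2 difference, KNP minus YS, of the 20 tested probe sets with its 95% confidence interval from limma. Every interval includes 0, and the widest belong to the probe sets with an array below the no-target level, such as CEBPD 3 (-2.60 to 1.18).

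Single arrays stood high or low for several of the 20 probe sets at once. KNP replicate 3 held the highest value of the 8 arrays for 8 of the 20 probe sets and YS replicate 4 for 5, while KNP replicate 1 held the lowest for 7. Probe sets of 1 gene, such as the 6 of NCOA1, count separately here. The same counts were not taken over all probe sets, so they are not shown to be particular to the regulators. The median signal of the whole array was 224 on KNP replicate 1 and 263 on YS replicate 4, against 158 to 174 on the others. The median deviation of the 20 probe sets from their own means was -0.32, -0.065, 0.33 and 0.085 on the KNP arrays and -0.074, -0.094, 0.18 and 0.057 on the YS arrays, so the extremes were both KNP. The ratio of the highest to the lowest array was smallest for STAT5B 1, at 1.47, and NCOA1 1, at 1.55. It was 2.50 for PPARG and 2.85 for CEBPB, and the highest ratios, 50.9 for CEBPD 3, 34.0 for RXRA 1 and 29.0 for STAT5A 3, came from probe sets with 1 or more arrays below the no-target level. Probe sets above that level on all 8 arrays numbered 13 of 21.

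**Figure D3:**
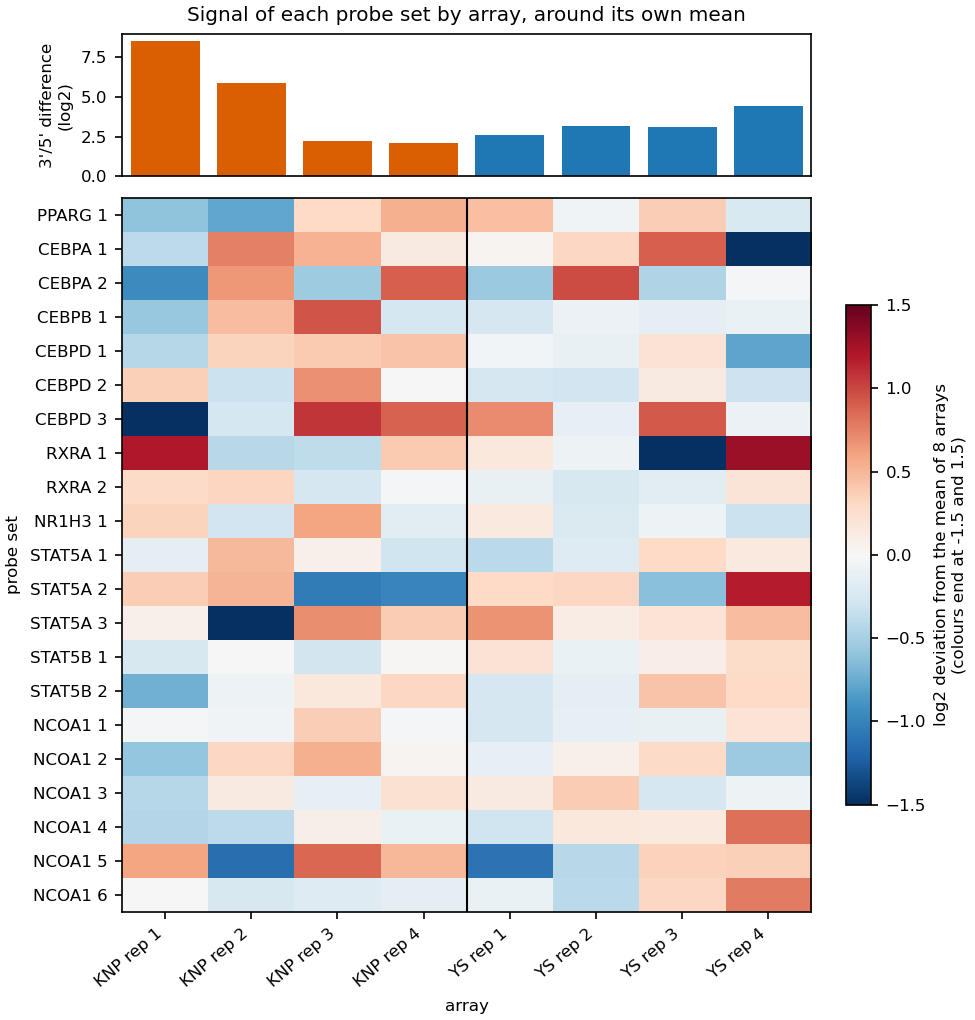
Top, 3'/5' difference of the housekeeping controls by array, KNP in orange and YS in blue. Below, log2 deviation of each probe set from its mean over 8 arrays, red above and blue below; the KNP columns, left of the line, run from KNP replicate 1, lowest for 7 of 20, to KNP replicate 3, highest for 8 of 20.

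Among 5997 other genes, those with the log2 pattern over the 8 arrays most like PPARG were DNASE1L1 (r = 0.965, and 0.967 within breeds), ADGRL4 (r = 0.957, and 0.961 within breeds) and ATP2B1 (r = 0.954, and 0.954 within breeds), by Pearson's r, here a description of genes picked for a high value. DNASE1L1 is a member of the DNase I family, ADGRL4 an adhesion receptor of endothelial cells and ATP2B1 a calcium pump of the plasma membrane. The points share the 8 arrays: DNASE1L1 and ADGRL4, as PPARG itself, were lowest on the 3 arrays of highest 3'/5' difference, and the part of that in the likeness was not tested. For CEBPA 1 the genes most alike were CNBP (r = 0.968, and 0.972 within breeds), LOC100739163 (r = 0.967, and 0.965 within breeds) and UBXN6 (r = 0.966, and 0.969 within breeds), all with their lowest signal on YS replicate 4. CEBPA 1 was below the no-target level on that array, and the values within breeds keep it. By rank, Spearman's correlation was 0.881 for CNBP, 0.762 for LOC100739163 and 0.905 for UBXN6.

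**Figure D4:**
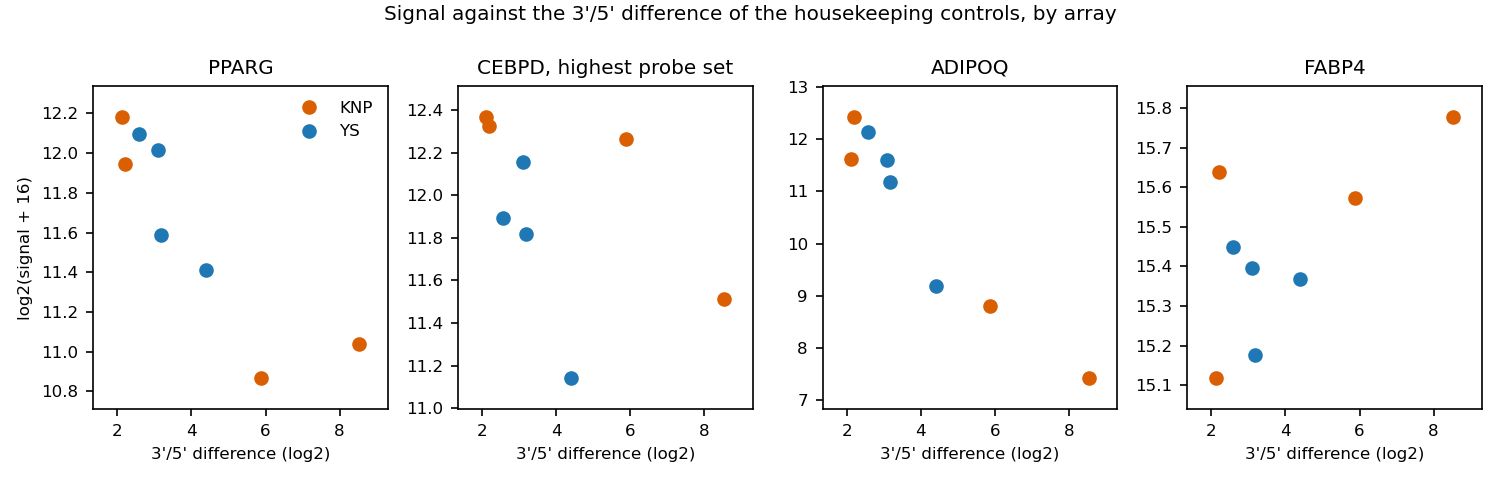
Log2(signal + 16) of PPARG, CEBPD 1, ADIPOQ and FABP4 on each of the 8 arrays (KNP orange, YS blue) against the array's 3'/5' difference on the log2 scale. PPARG and ADIPOQ are lowest on the 3 arrays with a 3'/5' difference above 4, while FABP4 is not.

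The genes around these regulators were taken from 9 lists of targets, partners and cofactors, in which 87 genes were tested, each by its brightest probe set. None passed an adjusted p of 0.05 in limma, as for 0 of 6006 genes in all, and 3 of 87 had an unadjusted p under 0.05 against 2.35% of all genes. PPARG targets of the fat cell, the genes for fatty acid uptake, storage and release, were measured for 18 of 25; 7 had a higher and 11 a lower mean in KNP, with a median difference of -0.12, against 0.013 for all genes, of which 51.8% were higher. That median was 0.11 with the 3'/5' covariate, 0.095 in the 5 arrays of small 3'/5' difference, 0.056 when arrays were weighted and 0.055 without KNP replicate 1, all of the opposite sign. Each of the 9 list medians changed sign under 1 or more alternatives. FABP4, the fatty acid carrier of adipocytes, had a signal of 56120.4, 48724, 51028 and 35557 in KNP, against 44676, 36984, 43092 and 42297 in YS, with broad overlap and a difference of 0.18 ± 0.24 (SE). ADIPOQ, which encodes the hormone adiponectin, was at 156, 431, 5458 and 3122 in KNP, against 4508, 2302, 3106 and 564 in YS. Its 3 lowest values were KNP replicates 1 and 2 and YS replicate 4, as for PPARG, and the difference of -0.96 ± 1.10 (SE) was 0.13 ± 0.43 (SE) with the 3'/5' covariate and 0.37 ± 0.40 (SE) in the 5 arrays of small 3'/5' difference. Lipoprotein lipase (LPL), which is also an LXR target, had a signal of 10669, 15633, 15321 and 18669 in KNP, against 20022, 22461, 22408 and 19027 in YS, and its 4 KNP values were all below the YS values. Its difference was -0.50 ± 0.25 (SE), with an unadjusted p of 0.0760 and an adjusted p of 0.9998 in limma. On its dimmer probe set the breeds overlapped, at 1944 to 5196 in KNP and 2027 to 6019.9 in YS, a difference of -0.34 ± 0.42 (SE). The droplet coat protein PLIN2 was at 9.70 ± 0.26 for KNP and 9.40 ± 0.30 for YS (SD, n = 4). Groups without overlap were seen for 2.08% of all genes.

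C/EBP targets, which include acute phase genes besides metabolic ones, were split 7 higher and 7 lower among 14 of 22 measured, with a median of -0.027. The hormone leptin (LEP) was at 11.09 ± 0.97 for KNP and 11.04 ± 0.67 for YS (SD, n = 4), and its other probe set at 10.45 in KNP and 10.01 in YS. The chemokine CCL2 was at 10.71 ± 0.51 for KNP and 10.27 ± 0.29 for YS and fibrinogen beta (FGB) at 6.81 ± 0.44 for KNP and 6.22 ± 1.43 for YS, with 3 KNP and 3 YS arrays above their no-target level. Other leucine zipper partners, 4 of 9 of which were measured, had a median difference of -0.020: CEBPG was at 8.26 ± 0.16 for KNP and 8.30 ± 0.088 for YS, and the repressor NFIL3 at 10.27 ± 0.71 for KNP and 10.42 ± 0.12 for YS.

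The other nuclear receptors held 2 of the 4 list genes whose breeds did not overlap. Those 4 were among 87 list genes tested, where 2.08% of all genes had no overlap. NR2F1, the orphan receptor COUP-TFI, had a signal of 740.1, 921, 661 and 534 in KNP, against 234, 428, 424 and 457 in YS, and the lowest KNP array exceeded the highest YS array. Its log2 difference was 0.88 ± 0.30 (SE), with an unadjusted p of 0.0160 and an adjusted p of 0.9998 in limma. The thyroid hormone receptor THRB lay the other way, at 169, 109.6, 137 and 155 in KNP, against 184, 227, 207 and 342 in YS, a difference of -0.67 ± 0.27 (SE; limma, unadjusted p 0.0351, adjusted p 0.9998). Neither passed the test. On KNP replicate 2 the THRB signal, at 109.6, was below the no-target level of 115. Of this list 8 of 15 were higher and 7 lower in KNP, with a median of 0.038.

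LXR targets, through which NR1H3 acts on cholesterol export and fat synthesis, were higher in KNP for 6 of 11, with a median of 0.14 and no member past the test. That median was -0.11 without YS replicate 4, -0.030 when arrays were weighted, -0.037 in the 5 arrays of small 3'/5' difference and 0.22 with the 3'/5' covariate. The cholesterol exporter ABCA1 was at 457, 1233, 2222 and 2195 in KNP, against 936, 900.5, 1489 and 1094 in YS. KNP replicates 3 and 4 were above all YS arrays and KNP replicate 1 below all of them, and the difference was 0.25 ± 0.49 (SE). It was 0.67 ± 0.30 (SE) with the 3'/5' covariate, and in the 5 arrays of small 3'/5' difference 1.02 ± 0.31 (SE; limma, adjusted p 0.525). The lysosomal cholesterol carrier NPC1 was at 11.17 ± 0.40 for KNP and 10.59 ± 0.56 for YS (SD, n = 4). SREBF1, which encodes a lipogenic transcription factor, was at 7.41 ± 0.57 for KNP and 7.01 ± 0.50 for YS. It was above the no-target level on 3 KNP and 3 YS arrays.

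Upstream of STAT5, receptors, JAK kinases and the other STATs were higher in KNP for 6 of 14, with a median of -0.049. The growth hormone receptor (GHR), chosen after its values were seen, was at 9.88 ± 1.10 for KNP and 10.35 ± 0.32 for YS (SD, n = 4). Its difference was -0.47 ± 0.51 (SE). GHR was lowest on KNP replicates 1 and 2 and YS replicate 4, the 3 arrays of highest 3'/5' difference. KNP replicates 3 and 4 were above all YS arrays. The smallest p of the list belonged to IL2RG, the shared cytokine receptor chain of lymphocytes, at 7.49 ± 0.65 for KNP and 6.36 ± 1.54 for YS (SD, n = 4) with 3 KNP arrays and 1 YS array above their no-target level, followed by the lymphocyte kinase JAK3 at 8.12 ± 0.34 for KNP and 7.62 ± 0.74 for YS. T and B cell markers, 5 of 6 of which had a lower mean in KNP, summed to between 333 and 1774 in KNP and 676 and 2227 in YS. Just 1 of these 6 genes was above the no-target level on all 8 arrays. Only 4 of 12 STAT5 targets were tested, 1 with a higher mean in KNP. The growth factor IGF1 was at 8.50 ± 0.57 for KNP and 8.71 ± 0.19 for YS on its brightest probe set. Of its 2 others, 1 had a difference of -0.81 and was above the no-target level on every array. The other had a difference of 0.45 and was above that level on only 1 KNP and 1 YS array. The feedback inhibitor SOCS1 was at 6.79 ± 0.99 for KNP and 7.08 ± 0.87 for YS, above the no-target level on 2 KNP and 4 YS arrays. Both its other probe sets had the opposite sign. They were above that level on 1 KNP and 2 YS arrays and on 2 KNP and 1 YS arrays.

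Besides NCOA1, 7 of 26 coactivators and corepressors were tested, 3 higher and 4 lower in KNP, with a median of -0.022. The corepressor NCOR1 was at 10.71 ± 0.49 for KNP and 10.74 ± 0.19 for YS (SD, n = 4), and HDAC3, the deacetylase that works with it, at 9.88 ± 0.31 for KNP and 10.02 ± 0.10 for YS. The acetyltransferase KAT5 was at 7.59 ± 0.96 for KNP and 6.75 ± 0.77 for YS, with 3 KNP and 2 YS arrays above their no-target level. Among the other adipogenic transcription factors 4 of 7 were higher in KNP. KLF9, a Krüppel-like factor induced by glucocorticoids, was at 3548, 4109.8, 2722 and 4779 in KNP, against 6545, 6266, 6084 and 5721 in YS, all KNP arrays below all YS arrays, with a difference of -0.73 ± 0.25 (SE; limma, unadjusted p 0.0171, adjusted p 0.9998). Its dimmer probe set had a difference of 0.062 ± 0.82 (SE). Because signal there cleared the no-target level for just 2 arrays in KNP and 1 in YS, it cannot check the brighter probe set.

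**Figure D5:**
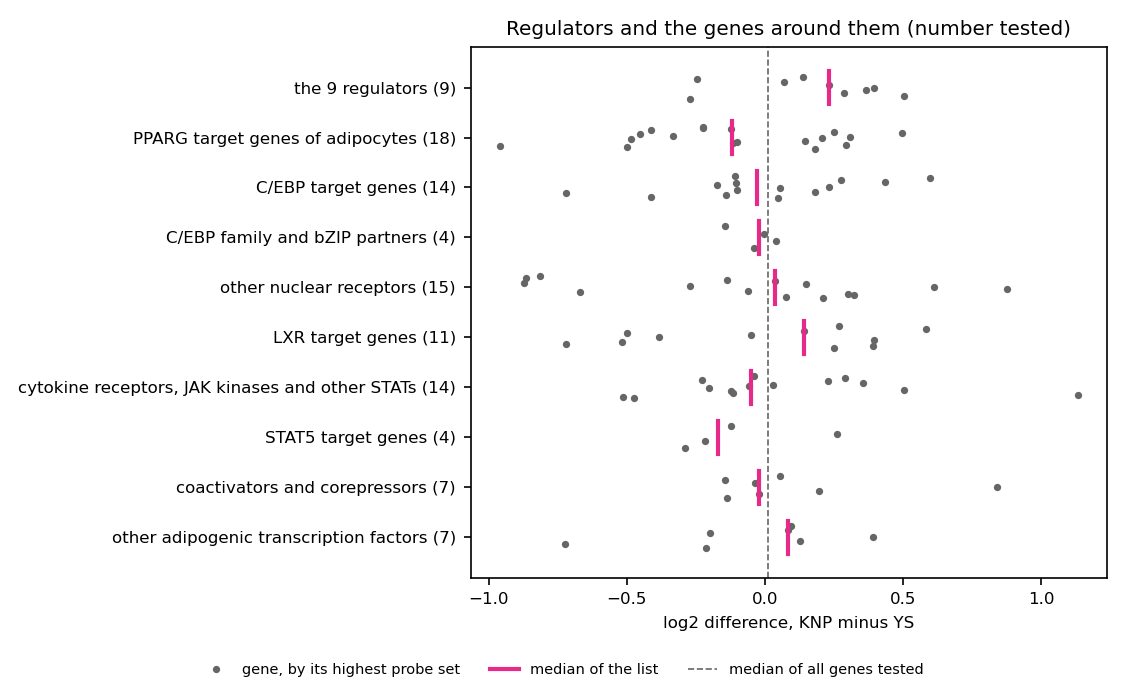
Log2 difference, KNP minus YS, of each tested gene by its brightest probe set (grey points) for the 9 regulators and the 9 lists around them, with the median of each list in pink and the median of all 6006 genes dashed. As measured on all 8 arrays, list medians lie between -0.17 for STAT5 targets and 0.23 for the regulators, and no point passed the test. The 0.23 is by gene, with 7 of 9 higher in KNP against 51.8% of all genes. Over all 20 tested probe sets of the regulators the median was 0.052.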

How the data were processed

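Backfat RNA of both breeds, 4 samples each, was hybridized to 1-colour Affymetrix porcine arrays, per the labels' protocols. The deposited values are 1 intensity per probe set and array, on a linear scale and not pooled. Trimmed by 2% at each end, their mean was 500 on every array, and this scaling was kept. The method for summarising probes is not stated in the labels, and no detection calls were used.

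Values were taken as log2(signal + 16). After 124 control probe sets were removed, the 25% with the lowest mean over 8 arrays were left out, which left 17999 of 23999. Gene symbols came from the platform annotation (10069 probe sets with 1 symbol, 198 with several, 13732 with none); 9961 matched the RefSeq annotation of Sscrofa11.1 by Entrez identifier and 0 symbols changed. Probe sets have no coordinates in the sources used here, and sequences were not analysed here.

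KNP minus YS was fitted by limma 3.58.1 (R 4.3.3; lmFit, eBayes, no covariate, two-sided, Benjamini-Hochberg over the 17999 probe sets, threshold 0.05), a procedure tested on simulated data. Precision rests on 4 arrays per breed. The members, lists and tests were chosen with earlier results of these data known. Named were all member probe sets, 6 of 11 genes fixed by name that had a tested probe set, the 2 genes of smallest p in each list (none passed) and the 3 genes most like PPARG and CEBPA. GHR, chosen after its values were seen, and LIPE and GPAM, from the adipocyte marker list, were named outside these rules. Later counts over named genes leave them out. Alternatives were other filters (none, 50%), median centring or quantile normalization, a pseudocount of 1 or 64, trend with robust fitting (statmod 1.5.0), a replicate block, array weights, a covariate for the 3'/5' difference, each array left out, an adjusted p of 0.10, averaging probe sets by gene and, chosen after seeing the data, the 5 arrays with a 3'/5' difference under 4.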

Additional observations from a re-analysis of the deposited data

Results flagged for a closer look

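In 96 groups of 4 arrays, 1 for each breed and probe set of a named gene, 1 array was set apart from the other 3 in 8, by a gap above Dixon's 95% critical value; chance gives about 1 in 20 groups. Values are log2(signal + 16). CEBPD 1 was at 11.51 on KNP replicate 1 and between 12.27 and 12.37 on the other arrays of that breed. For CEBPD 2, YS replicate 3 gave 8.37, where the rest of its breed lay between 7.92 and 7.98. KNP replicate 3 read 10.88 for NCOA1 1, against a range of 10.46 to 10.50 on the other 3 arrays. NCOR1 was at 9.97 on KNP replicate 1 and between 10.85 and 11.03 on the other arrays of that breed. For CEBPG, KNP replicate 1 gave 8.50, where the rest of its breed lay between 8.16 and 8.21. YS replicate 1 read 7.97 for NR2F1, against a range of 8.78 to 8.88 on the other 3 arrays. SOCS1 was at 8.39 on YS replicate 4 and between 6.54 and 6.76 on the other arrays of that breed. For LOC100739163, YS replicate 4 gave 10.55, where the rest of its breed lay between 12.27 and 12.53. Among the regulators 3 of 40 groups held such an array. KNP replicate 1 was the array concerned for CEBPD 1, NCOR1 and CEBPG. No cause was tested.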

How the results depend on the processing

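In every one of 20 settings 0 member probe sets and 0 of all probe sets passed; the smallest adjusted p in limma ranged from 0.0596 (trend with robust fitting) to 1 over all and from 0.577 to 1 over members. At an unadjusted p under 0.05 all probe sets numbered 511, against 975 when arrays were weighted, 877 with the 3'/5' covariate, 777 without KNP replicate 1, 883 without YS replicate 4 and 1492 in the 5 arrays of small 3'/5' difference. The median member difference of 0.052 ranged from -0.081 to 0.14 with 1 array left out and from 0.0050 to 0.20 otherwise. The replicate block left the count at 0 and the median at 0.052; the labels do not pair the numbers, deviations of same-numbered samples correlated by -0.19 to 0.13, and 0 of 8 samples correlated best with their own number. Of 377 alternative values of member differences 22 changed sign, and of 527 of the other named genes 36 did; the cause was not tested. With quantile normalization the sign turned for CEBPG (0.0084). When arrays were weighted the sign turned for STAT5B 2 (0.053), LEP (-0.26), NCOR1 (0.075), NFIL3 (0.11) and ATP2B1 (0.058). With the 3'/5' covariate the sign turned for CEBPD 3 (0.090), ADIPOQ (0.13), LEP (-0.13), NCOR1 (0.15), NFIL3 (0.062) and ATP2B1 (0.077). In the 5 arrays of small 3'/5' difference the sign turned for PPARG (0.16), CEBPA 1 (-0.087), CEBPD 3 (0.48), STAT5A 1 (-0.013), STAT5A 3 (0.21), STAT5B 2 (0.22), ADIPOQ (0.37), LEP (-0.41), SREBF1 (-0.037), NCOR1 (0.21), NFIL3 (0.44), KAT5 (-0.11), ADGRL4 (0.12), ATP2B1 (0.29), LOC100739163 (-0.044) and UBXN6 (-0.012). With 1 array left out, the differences that changed sign ranged from -1.19 to 0.21 for CEBPD 3, -0.30 to 0.047 for STAT5B 2, -0.20 to 0.029 for NCOA1 3, -0.37 to 0.32 for LEP, -0.15 to 0.21 for NCOR1, -0.42 to 0.020 for ATP2B1 and -0.26 to 0.36 for CEBPA 2. Likewise the range was -0.080 to 0.18 for STAT5A 1, -1.08 to 0.018 for STAT5A 3, -0.44 to 0.11 for NFIL3, -0.0067 to 0.74 for ABCA1, -0.35 to 0.056 for IGF1, -0.66 to 0.15 for SOCS1 and -0.12 to 0.0027 for CEBPG. It was -0.26 to 0.89 for RXRA 1, -0.073 to 1.03 for FGB, -0.16 to 0.88 for CEBPA 1, -0.0043 to 0.37 for NCOA1 2 and -0.15 to 0.51 for LOC100739163. Signal near the no-target level limits CEBPA 2, RXRA 1, STAT5A 2 and STAT5A 3. CEBPA 1, CEBPD 3 and NCOA1 5 are limited by 1 array below that level, and 4 arrays per breed limit every value.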
